A study of Mus musculus with 30 samples.

Results

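A set of 30 genes of cholesterol and fatty acid synthesis were followed by messenger RNA level and by promoter accessibility in mouse retinal ganglion cells (RGCs) after optic nerve crush. The set was chosen by name, with earlier results of these data known. Its enzymes were 19 that carry acetyl-CoA to sterols and prenyl chains and 5 that make and desaturate fatty acids. The other members were 5 regulators of both pathways and the sterol carrier Stard4. All 30 were among the 13752 genes of the RNA count table, and all 30 were among the 13737 genes tested. Relative to uncrushed eyes, 25 of the 30 were lower on day 2 after crush, where 14.5% of all genes tested were. On day 3, 22 were lower and on day 4, 21, where 20.1% and 19% of all genes were, whereas on day 1 it was 5 of the 30 and 5.45% of all genes. The median member fell by 1.01 on the log2 scale on day 3, and the median of all genes tested stood at 0.03. Insig2, which encodes an inhibitor of the pathway, went the other way and was higher on every day.

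Sterol synthesis starts from acetyl-CoA and runs through mevalonate and short prenyl phosphates to squalene, which is closed to lanosterol and trimmed to cholesterol. Its genes are switched on together by SREBP-2, the product of Srebf2, while SREBP-1, the product of Srebf1, acts mainly on fatty acid genes. Both precursors sit in the endoplasmic reticulum bound to the escort protein SCAP, and the INSIG proteins hold that complex back when sterols are plentiful. Neurons of the adult central nervous system are thought to take much of their cholesterol from glia, and optic nerve crush cuts the axons of RGCs, the only retinal neurons that project to the brain.

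The source of every library was papain-dissociated retinal tissue of C57BL/6 mice, sorted by flow cytometry for RGCs. Neither the sort marker nor the age of the mice is given in the labels, and replicates 2 and 3 of the day 0 RNA libraries carry the strain names C57BL/7 and C57BL/8. RNA sequencing compared uncrushed eyes, called day 0 here, with 3 libraries, and eyes 1, 2, 3 and 4 days after crush, with 3, 2, 3 and 2 libraries. ATAC sequencing, in which a transposase cuts open chromatin, was made on day 0 (6 libraries), day 1 (3) and day 3 (6). No transgene, virus or drug is named in the sample labels. The headers of the authors' comparison tables mark their groups as NT or nonTarget, a term that the labels do not explain. Whether replicates are separate mice is not stated either, and each p-value thus measures the spread between libraries, which may be technical.

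Deposited labels and tables were checked against each other before use. The authors' deposited table of RNA fold changes has a column for day 3 that matched the day 2 libraries of the count table (Pearson r = 0.99999 across 13737 genes, with genes not being independent replicates) and not the day 3 libraries (r = 0.648). Its day 1 column matched the day 1 libraries (r = 0.99997). The authors' normalized values placed all 13 RNA libraries with the same label as the counts. Both carry the same column names, so this match cannot show whether the day 2 or the day 3 label is right. The labels of the count table were kept and the authors' RNA fold changes were not used. Every day 2 and day 3 RNA value below rests on those labels. The description of each of the 15 ATAC samples names a peak file of another day than its title does. The day of every ATAC value below is that of the title and treatment label, which the column names of the count table carry too. The count table held 13 of the 15 labelled RNA samples, with 19024286 to 27561352 counts each, and the ATAC table held 15 libraries with 20006724 to 72579102 counts in 151630 peaks.

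The RGC label was checked against 12 marker genes, among them Rbpms, Pou4f2 and Nefl, whose summed level was 10631.5 to 11799.9 CPM (counts scaled by library size) on day 0, 7763 to 9666 on day 1, 7009 to 7531 on day 2, 7691 to 8253 on day 3 and 6531 to 6839 on day 4. Between 8 and 10 of the 12 were lower on each day after crush, and 1 was higher on day 3 and 1 on day 4. In bulk libraries, fewer cells of a type cannot be told apart from less RNA per cell. Of 14 markers of Müller glia and astrocytes, which also make sterols, 13 were tested and Gfap was not. Their sum was 1771 to 1985 CPM on day 0, 1966 to 2193 on day 1, 1164 to 1239.6 on day 2, 872 to 1108 on day 3 and 1144 to 1173 on day 4. Of this sum Aldoc made up 864 to 1161 CPM on day 0 and Dkk3 another 478 to 529 CPM, whereas Rlbp1, Slc1a3 and Aqp4 were at most 17.9, 5.64 and 11.04 CPM in any library. On day 3 Aldoc was at 177 to 247 CPM and Dkk3 at 149 to 239 CPM. Single glial markers went both ways. Of the 13 tested, 2 were higher and 0 lower on day 1, and 3 were higher and 4 lower on day 2. On day 3 again 3 were higher and 4 lower, and on day 4, 3 were higher and 3 lower. Microglial markers, 11 in number, summed to 61.0 to 97.4 CPM on day 0, 90.3 to 503 on day 1, 225.5 to 256 on day 2, 156 to 159 on day 3 and 234 to 335 on day 4. Of these 11, 5 were higher on day 1, 7 on day 2, 1 on day 3 and 7 on day 4, and 1 was lower on day 3. The 13 rod and cone markers ranged from 249 to 1087 CPM among the day 0 libraries alone. Of 9 amacrine and horizontal markers 8 were tested, and their sum was 513 to 822 CPM on day 0. It was 656 to 689 CPM on day 1, 759 to 871 on day 2, 420 to 549 on day 3 and 475 to 522 on day 4. Of these 8, 3 were higher and 1 lower on day 2, and 1 was higher and 3 lower on day 3. On day 4, 2 were lower, and on day 1, 0 were called. Of 8 vascular markers 3 were tested, and these summed to at most 12.5 CPM, with Cldn5 and Pecam1 among 5 that were not tested. The part of these shifts in the results below was not tested.

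Promoter sequences are given first for the members on which the RNA results turn: Hmgcs1, an early enzyme of the branch; Idi1, the enzyme with the largest fall; Insig1; and Fasn. Each runs 5′ to 3′ along the gene's own strand from 250 bases before to 50 after the transcription start, as RefSeq gives it on GRCm38.p6. The windows are chr13:119690101-119690400 on the plus strand for Hmgcs1, chr13:8885356-8885655 on the plus strand for Idi1, chr5:28071162-28071461 on the plus strand for Insig1 and chr11:120824498-120824797 on the minus strand for Fasn. Capitals mark every match, on either strand, to any of 4 motifs. The core of a sterol regulatory element, which SREBPs bind, was searched as TCACNCCAC. The E-box, which SREBP-1 can also bind, was searched as CACGTG. The box of the cofactor NF-Y was searched as CCAAT, which reads as ATTGG where it lies on the opposite strand of the window. The box of the cofactor SP1 was searched as GGGCGG, which reads as CCGCCC where it lies on that strand.
Hmgcs1: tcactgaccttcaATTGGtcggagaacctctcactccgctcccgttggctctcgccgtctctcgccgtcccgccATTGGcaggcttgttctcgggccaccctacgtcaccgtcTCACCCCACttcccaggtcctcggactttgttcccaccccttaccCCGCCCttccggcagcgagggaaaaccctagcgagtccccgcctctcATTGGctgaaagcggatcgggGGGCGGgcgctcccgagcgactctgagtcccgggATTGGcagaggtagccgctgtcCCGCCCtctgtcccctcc
Idi1: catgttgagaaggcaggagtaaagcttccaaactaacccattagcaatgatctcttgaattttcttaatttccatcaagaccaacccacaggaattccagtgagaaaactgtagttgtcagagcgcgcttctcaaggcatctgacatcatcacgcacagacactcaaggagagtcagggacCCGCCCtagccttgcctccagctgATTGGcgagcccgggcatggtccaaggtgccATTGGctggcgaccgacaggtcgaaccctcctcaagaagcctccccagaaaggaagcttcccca
Insig1: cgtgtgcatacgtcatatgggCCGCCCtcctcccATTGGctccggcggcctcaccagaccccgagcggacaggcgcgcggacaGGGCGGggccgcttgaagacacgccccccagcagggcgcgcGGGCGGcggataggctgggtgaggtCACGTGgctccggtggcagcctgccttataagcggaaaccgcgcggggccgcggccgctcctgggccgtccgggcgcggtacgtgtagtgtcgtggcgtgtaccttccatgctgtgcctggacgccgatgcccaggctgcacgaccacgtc
Fasn: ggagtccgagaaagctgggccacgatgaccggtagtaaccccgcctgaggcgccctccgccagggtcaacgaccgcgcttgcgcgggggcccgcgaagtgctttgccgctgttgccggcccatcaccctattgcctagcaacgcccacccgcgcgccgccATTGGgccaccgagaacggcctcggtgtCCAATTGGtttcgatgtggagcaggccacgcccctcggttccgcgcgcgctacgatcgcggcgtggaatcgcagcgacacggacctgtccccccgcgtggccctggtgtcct

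The Hmgcs1 promoter held the sterol regulatory element core as TCACCCCAC at bases 114 to 122 of its window, 137 to 129 bases before the start, together with 4 NF-Y and 3 SP1 boxes. In the Insig1 promoter the E-box lay at bases 150 to 155, beside 1 NF-Y box and 3 SP1 boxes. Idi1 had 2 NF-Y boxes and 1 SP1 box. The Fasn window had 3 NF-Y boxes, of which a CCAAT and an ATTGG share their middle bases as CCAATTGG. Promoter windows were held for 24 of the 30 members, 32 windows in all, and the other 6 (Fdps, Fdft1, Sqle, Scd1, Scd2 and Stard4) are named only. Among the 32 windows, the sterol regulatory element core occurred in 1, that of Hmgcs1, which is 3.12%. It occurred in 1.24% of all 32851 windows in the table and in 1.14% of the 13837 windows of genes in the RNA table. A single window cannot show a difference in share. CACGTG was found in 18.8% of members' windows, which is 6 windows of 5 genes, against 7.15% and 9.48%. Some windows of the same member overlap, as at Scap and Dhcr7, and are then not separate promoters. For CCAAT the shares were 68.8%, against 37.4% and 37.3%, and for GGGCGG 75.0%, against 35.7% and 60.3%. The median share of G and C was 61.8% in members' windows, 60.3% for genes of the RNA table and 52.7% for all windows. A match describes the letters only.

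Changes in RNA were tested with edgeR's quasi-likelihood test on counts, and a gene was called higher or lower where the Benjamini-Hochberg adjusted p over all 13737 genes was at most 0.05. All days were set against the same 3 day 0 libraries, so the comparisons are not independent of each other. On day 1, 5 members were called lower and 1 higher, where 5.45% of all genes were called lower and 5.93% higher. On day 2, 25 members were lower and 1 higher, against 14.5% and 14.8% of all genes. On day 3 the counts were 22 lower and 2 higher, with 20.1% and 20.4% of all genes, and on day 4 they were 21 lower and 1 higher, with 19% and 19.8% of all genes. Median log2 changes over the 30 members were −0.18, −0.98, −1.01 and −1.28 on days 1, 2, 3 and 4, and over all genes they were 0.01, 0.04, 0.03 and 0.06. In the test of any difference between days, 25 of the 30 passed, and 47.1% of all genes did. The 5 that did not were Ggps1, Ebp, Sc5d, Srebf1 and Scap.

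**Figure D1:**
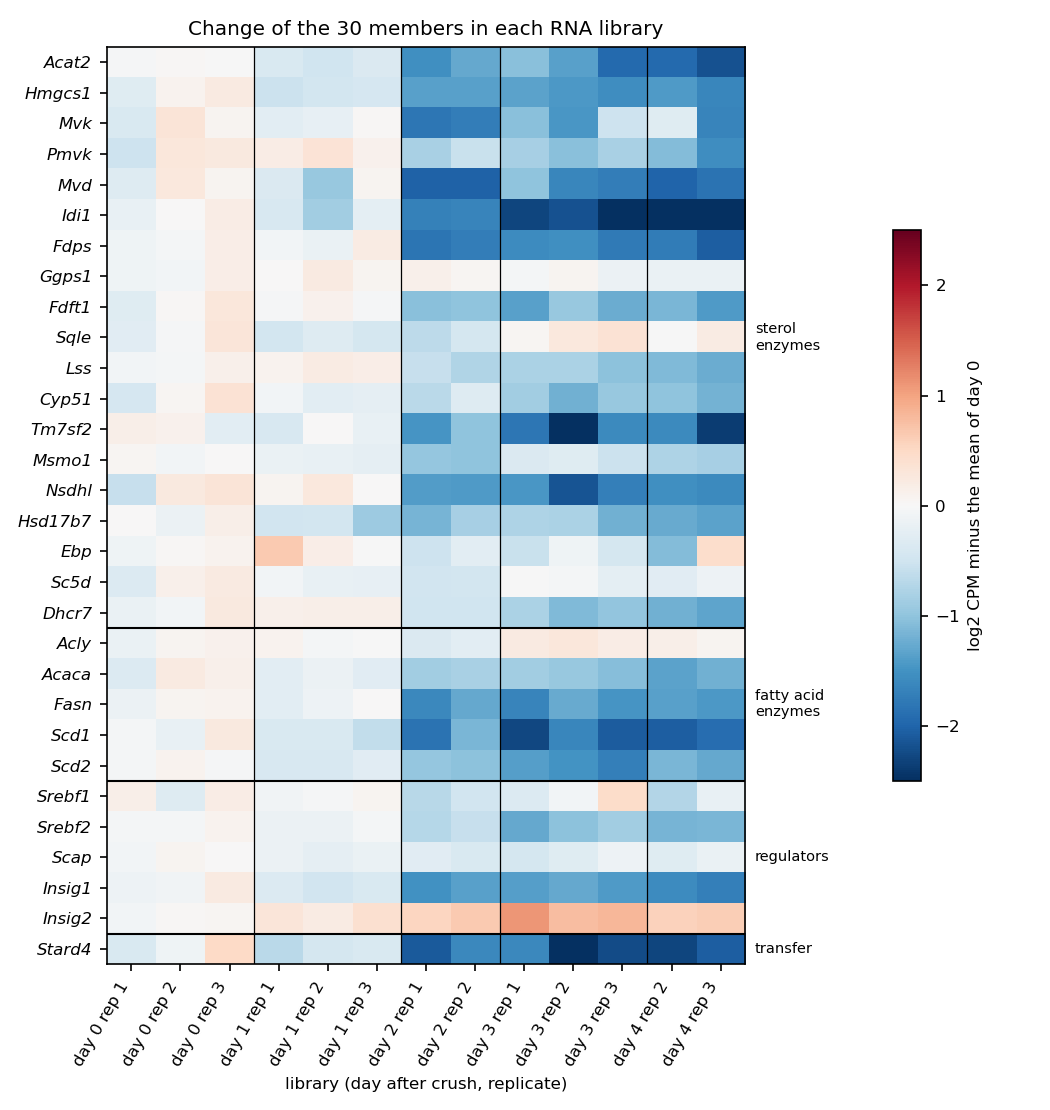
Log2 change of each of the 30 genes in each of the 13 RNA libraries relative to the mean of the day 0 libraries, with libraries in columns by day and genes in rows by role. Most enzymes are near their day 0 level on day 1 and below it on days 2 to 4, where Insig2 is above it.

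The mevalonate branch opens with a thiolase and with HMG-CoA synthase, which together join acetyl units into HMG-CoA. The gene for the synthase, Hmgcs1 (chr13:119690379-119708260, plus strand, mm10), had 303, 395 and 436 CPM on day 0, 258, 272 and 279 on day 1, 147 and 146 on day 2, 147, 137 and 128 on day 3 and 141 and 121 on day 4. Every library after crush was below every day 0 library, and the days 2 to 4 libraries were all below those of day 1. Its log2 change was −0.49 ± 0.11 (SE; edgeR adjusted p = 0.0085) on day 1 and −1.46 ± 0.11 (adjusted p = 1.6e-08) on day 3. Acat2, the cytosolic thiolase that makes acetoacetyl-CoA, ranged from 33.3 to 34.6 CPM on day 0 and from 8.77 to 16.3 CPM on day 3, with log2 changes of −1.41 ± 0.19 on day 3 and −2.07 ± 0.23 on day 4.

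Further enzymes then phosphorylate and decarboxylate mevalonate, and an isomerase and prenyl transferases lengthen the product. Fdps, the farnesyl diphosphate synthase whose product feeds both sterols and protein prenylation, read 26.8, 28.1 and 32.3 CPM on day 0, 27.7, 25.8 and 33.5 on day 1, 8.08 and 8.67 on day 2, 9.69, 9.95 and 8.44 on day 3 and 8.56 and 6.92 on day 4. Days 0 and 1 overlapped fully, and all 7 later libraries were at less than 10 CPM. The log2 change was −1.80 ± 0.20 on day 2 and −1.64 ± 0.17 (edgeR adjusted p = 5.5e-07) on day 3. Idi1, the isopentenyl diphosphate isomerase, had 8.93, 10.2 and 11.6 CPM on day 0, 7.74, 5.53 and 8.60 on day 1, 3.08 and 3.17 on day 2, 2.01, 2.18 and 1.46 on day 3 and 1.05 and 1.33 on day 4. Its log2 change of −3.11 ± 0.37 on day 4 (edgeR adjusted p = 3.5e-06) was the largest among the 30 on any day, at a low count. The mevalonate kinase Mvk fell on day 2 (log2 change −1.82 ± 0.37) and day 3 (−0.99 ± 0.31), and its day 4 libraries differed from each other at 11.99 and 4.69 CPM (−0.86 ± 0.35, edgeR adjusted p = 0.067). Its day 3 call was lost on leaving out day 0 replicate 2 or day 3 replicate 1 or 2. Pmvk and Mvd, which carry out the next 2 steps, changed by −0.94 ± 0.18 and −1.46 ± 0.30 on day 3. Ggps1, which makes geranylgeranyl diphosphate for protein prenylation and not for sterols, ranged from 143 to 188 CPM over all 13 libraries and was called on no day.

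Squalene is made by Fdft1, oxidised by Sqle and closed to lanosterol by Lss. Fdft1 had 158, 199.5 and 237 CPM on day 0, 192.5, 209.8 and 190.4 on day 1, 94.7 and 97.1 on day 2, 76.6, 102 and 82.7 on day 3 and 88.0 and 73.1 on day 4. No library of days 2 to 4 reached the lowest of days 0 and 1, and the day 3 log2 change was −1.19 ± 0.13 (edgeR adjusted p = 1.8e-06). It shares 774 bases with Ctsb on the opposite strand, whose mean count was 17720 against 3115 for Fdft1, and without strand information reads there cannot be assigned to one gene. Sqle (chr15:59315077-59331192, plus strand), squalene epoxidase and a rate-limiting step, showed another course. It had 97.3, 117 and 147 CPM on day 0, 86.1, 94.3 and 87.5 on day 1, 75.1 and 87.4 on day 2, 122, 143 and 153 on day 3 and 117 and 136 on day 4. Days 1 and 2 lay below every day 0 library, and days 3 and 4 overlapped day 0. The log2 change was −0.43 ± 0.13 (edgeR adjusted p = 0.044) on day 1, −0.57 ± 0.15 (0.0088) on day 2, 0.21 ± 0.13 (0.22) on day 3 and 0.07 ± 0.15 (0.73) on day 4, and day 3 exceeded day 1 by 0.64 ± 0.13 (0.0011). Its day 1 call was lost in 12 of 20 alternative analyses, and its day 2 call in 2, one of them without day 2 replicate 1.

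Lss counts were 53.4, 54.1 and 61.8 CPM on day 0, 60.2, 64.6 and 63.4 on day 1, 37.7 and 33.4 on day 2, 32.6, 32.6 and 27.4 on day 3 and 26.2 and 23.9 on day 4. Days 2 to 4 lay below days 0 and 1 without overlap, with a log2 change of −1.17 ± 0.13 (edgeR adjusted p = 1.9e-06) on day 4.

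Lanosterol is trimmed by demethylases, reductases and an isomerase, and Dhcr7 reduces the last intermediate of its branch to cholesterol. Nsdhl, a dehydrogenase that helps remove methyl groups from the ring, had 33.5, 59.3 and 62.0 CPM on day 0, 52.2, 59.7 and 50.2 on day 1, 18.9 and 18.7 on day 2, 18.1, 11 and 15.1 on day 3 and 17.1 and 16.4 on day 4. The low day 0 library still stood above all 7 libraries of days 2 to 4, and the day 3 log2 change was −1.81 ± 0.21 (edgeR adjusted p = 2.6e-06). Dhcr7 ran at 40.6, 43.6 and 53.7 CPM on day 0, 49.9, 50.4 and 50.6 on day 1, 32.4 and 32.1 on day 2, 26.3, 21.1 and 22.9 on day 3 and 19.8 and 18.2 on day 4. Its libraries of days 2 to 4 were each below those of days 0 and 1. The log2 change was −0.51 ± 0.15 (edgeR adjusted p = 0.015) on day 2, −0.97 ± 0.13 on day 3 and −1.27 ± 0.15 on day 4. The day 2 call was lost in 4 of 20 alternatives, among them leaving out day 0 replicate 3 or either day 2 library.

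The other ring enzymes differed in size and time. Tm7sf2, a sterol reductase, changed by −2.002 ± 0.31 on day 3 and shares 532 bases with Vps51 on the same strand. Cyp51, the lanosterol demethylase, changed by −0.52 ± 0.18 (edgeR adjusted p = 0.034) on day 2, where its libraries at 88.7 and 112 CPM overlapped the lowest of day 0 at 105, and by −1.04 ± 0.16 on day 3. The day 2 call was lost in 6 of 20 alternatives, among them leaving out day 0 replicate 2 or 3 or day 2 replicate 1, and the log2 change was −0.22 with the first 2 of the authors' sequencing components as terms. Msmo1, a methylsterol oxidase, was lowest on day 2 (−0.98 ± 0.10) and less far below day 0 on day 3 (−0.40 ± 0.09). Hsd17b7, a ketosterol reductase, was already lower on day 1 (−0.61 ± 0.16, edgeR adjusted p = 0.025), with 31.5, 31.6 and 23.2 CPM on day 1 against 44.1, 39.2 and 48.1 on day 0. That day 1 call was lost without day 0 replicate 3 or day 1 replicate 3. Sc5d, a sterol desaturase, was called on day 2 alone (−0.49 ± 0.15, edgeR adjusted p = 0.024), a call lost in 6 of 20 alternatives, leaving out either day 2 library among them, and the isomerase Ebp, at 4.33 to 14.5 CPM over all libraries, was not called on any day. Of the 19 sterol enzymes, 3 were lower on day 1, 17 on day 2, 15 on day 3 and 14 on day 4.

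**Figure D2:**
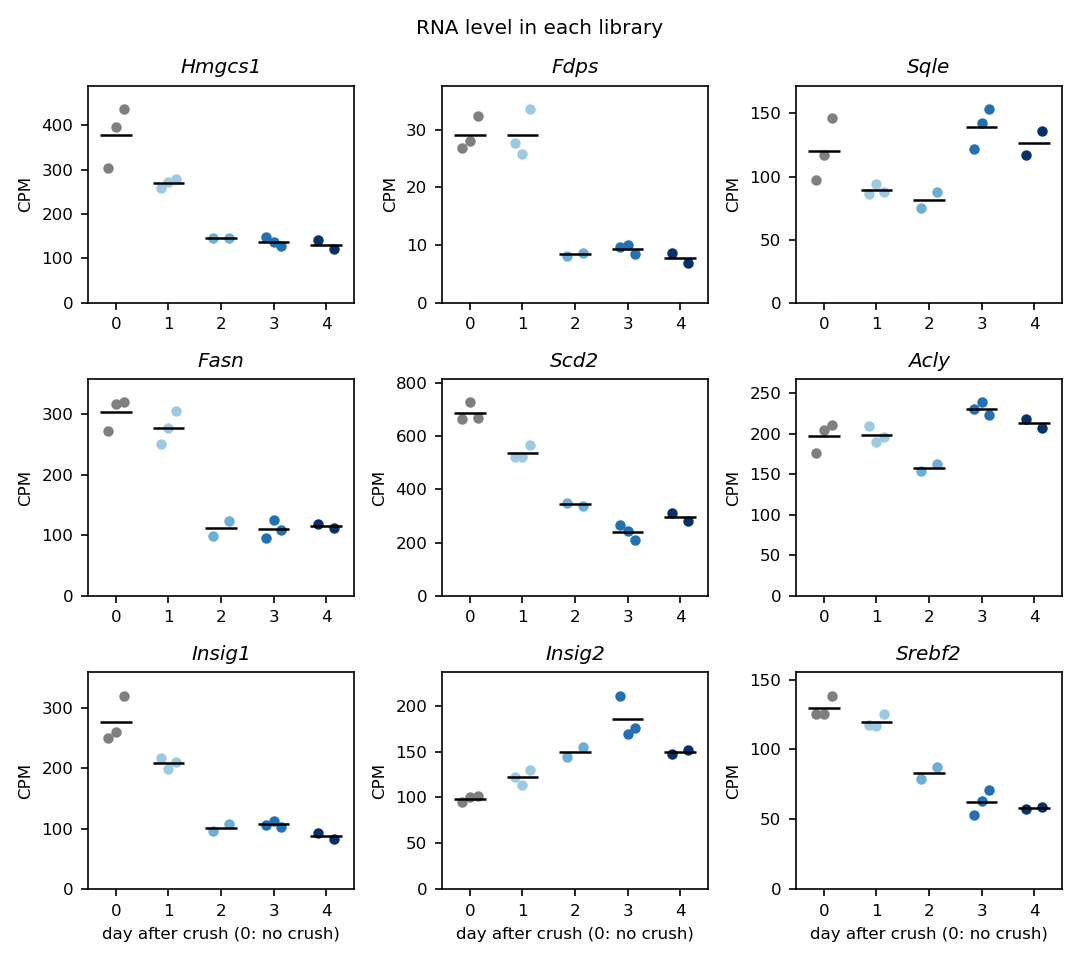
CPM of single genes in each RNA library by day after crush, each point 1 library and the line the mean of the day. Hmgcs1, Fdps and Fasn drop between day 1 and day 2, Sqle overlaps its day 0 range on days 3 and 4, and Insig2 is above its day 0 range from day 1 on.

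Fatty acid synthesis draws citrate-derived acetyl-CoA from Acly, commits it through the carboxylase Acaca, and builds palmitate on Fasn, which the desaturases Scd1 and Scd2 turn into monounsaturated chains. Fasn (chr11:120805846-120824547, minus strand) had 272, 318 and 319.9 CPM on day 0, 251.5, 278 and 305 on day 1, 99.1 and 125 on day 2, 96.0, 126 and 109 on day 3 and 119 and 112 on day 4. Day 1 overlapped day 0, and every later library was at 126 CPM or less, the day 3 log2 change being −1.46 ± 0.12 (edgeR adjusted p = 2.3e-08). Scd2, the main stearoyl-CoA desaturase of mouse brain, had 665.5, 727 and 670.5 CPM on day 0, 520.4, 524 and 566 on day 1, 351 and 339.5 on day 2, 265, 243 and 211 on day 3 and 311 and 281.5 on day 4. It was lower on day 1 already (log2 change −0.36 ± 0.08, edgeR adjusted p = 0.011), and all later libraries were lower again. The log2 change of −1.52 ± 0.09 on day 3 gave the smallest adjusted p of the 30 genes on that day, 4.6e-10.

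Scd1 had 45.4, 41.3 and 55.3 CPM on day 0, 36.0, 36.3 and 30.8 on day 1, 12.9 and 21.4 on day 2, 9.60, 15.1 and 11.02 on day 3 and 11.1 and 12.5 on day 4. All libraries after crush were below day 0, although day 1 was not called (log2 change −0.46 ± 0.20, edgeR adjusted p = 0.14), and the change on day 3 was −1.99 ± 0.20. Acaca counts were 48.2, 70.9 and 66.4 CPM on day 0, 50.9, 54.8 and 50.1 on day 1, 33.2 and 34.8 on day 2, 33.5, 31.5 and 29.2 on day 3 and 24.1 and 26.4 on day 4, with no overlap between day 0 and days 2 to 4. Its day 3 log2 change was −0.98 ± 0.13 (edgeR adjusted p = 1.6e-05).

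Acly, which also supplies acetyl-CoA for sterols and for histone acetylation, did not follow the other 4. It had 176, 205 and 211 CPM on day 0, 209, 190.2 and 196 on day 1, 154 and 163 on day 2, 230.4, 239 and 224 on day 3 and 218 and 207 on day 4. Day 2 was below day 0 and day 3 above it, both without overlap, with log2 changes of −0.32 ± 0.09 (edgeR adjusted p = 0.015) and 0.23 ± 0.08 (0.035). Either call rested on single libraries: leaving out day 2 replicate 1 or 2 ended the first, and leaving out day 0 replicate 1 or 2, day 1 replicate 1 or day 3 replicate 1 or 2 ended the second. Of the 5 fatty acid enzymes, 1 was lower on day 1, 5 on day 2, 4 on day 3 and 4 on day 4.

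Among the regulators, Srebf2 (chr15:82147181-82205379, plus strand), the activator of sterol genes, had 125, 125 and 138.5 CPM on day 0, 117.5, 117 and 125 on day 1, 78.9 and 87.3 on day 2, 53.1, 63.2 and 70.7 on day 3 and 57.7 and 58.9 on day 4. Its libraries of days 2 to 4 were all below days 0 and 1, with log2 changes of −0.64 ± 0.12 on day 2 and −1.06 ± 0.10 (edgeR adjusted p = 3.2e-07) on day 3. Insig1, an SREBP target as well as its inhibitor, had 251, 260.3 and 321 CPM on day 0, 217, 198.5 and 211 on day 1, 96.2 and 108 on day 2, 106, 114 and 103 on day 3 and 92.9 and 83.9 on day 4. All 10 libraries after crush lay below day 0. The log2 change was −0.41 ± 0.10 (edgeR adjusted p = 0.012) on day 1 and −1.37 ± 0.10 (7.6e-09) on day 3.

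Insig2 (chr1:121304353-121332589, minus strand) encodes the other inhibitor, which unlike Insig1 is not induced by SREBPs in mouse liver. It had 94.5, 100.1 and 101.5 CPM on day 0, 122, 114 and 130.2 on day 1, 144 and 155 on day 2, 211, 169 and 175.5 on day 3 and 147 and 151 on day 4. All 10 libraries after crush were above all 3 of day 0. The log2 change was 0.31 ± 0.09 (edgeR adjusted p = 0.043) on day 1, 0.60 ± 0.10 (0.00031) on day 2, 0.91 ± 0.09 (5.9e-07) on day 3 and 0.60 ± 0.10 (0.00017) on day 4. The day 1 call was lost in 14 of 20 alternatives, with adjusted p from 0.053 to 0.14 in those.

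Srebf1, the activator of fatty acid genes, had 16.1, 11.7 and 16.5 CPM on day 0, 13.7, 14.2 and 15.4 on day 1, 9.06 and 10.4 on day 2, 11.5, 14.0 and 20.1 on day 3 and 8.71 and 12.8 on day 4. Days overlapped except day 2, which was lower than day 0 without passing the test (log2 change −0.60 ± 0.26, edgeR adjusted p = 0.094). Scap, the escort, had 40.9, 44.8 and 43.1 CPM on day 0, 38.8, 36.5 and 38.4 on day 1, 35.2 and 32.9 on day 2, 31.7, 34.6 and 39.2 on day 3 and 34.8 and 38.3 on day 4. Each of its libraries after crush was below day 0, but the largest log2 change was −0.34 ± 0.13 (day 2, edgeR adjusted p = 0.062), and it was not called on any day.

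Stard4, which carries cholesterol between membranes and is a sterol-regulated gene, had 20.2, 24.4 and 37.4 CPM on day 0, 16.5, 19.5 and 20.2 on day 1, 6.07 and 8.58 on day 2, 8.64, 4.63 and 5.51 on day 3 and 5.34 and 6.25 on day 4. Days 2 to 4 were all below 10 CPM, with a day 3 log2 change of −2.13 ± 0.27 (edgeR adjusted p = 6e-06), and day 1 touched the lowest day 0 library (−0.54 ± 0.25, adjusted p = 0.19).

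Between day 3 and day 1, 19 members were lower and 3 higher on day 3, where 17.5% of all genes were lower and 16.1% higher. The 3 were Sqle, Insig2 and Acly, the last at 0.22 ± 0.08 (edgeR adjusted p = 0.048), a call that was lost in 11 of 20 alternatives. The median log2 difference of day 3 minus day 1 was −0.97 over members and 0.00 over all genes.

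The 3 roles were set beside each other as the mean log2 change of their genes in each library relative to the day 0 mean. Sterol enzymes averaged −0.14 ± 0.02 on day 1 (SD, n = 3), −1.02 ± 0.08 on day 2 (n = 2), −1.04 ± 0.08 on day 3 (n = 3) and −1.25 ± 0.07 on day 4 (n = 2), with day 0 libraries from −0.21 to 0.15. The day 1 mean rests on the day 0 libraries, being −0.28 without day 0 replicate 1, −0.08 without day 0 replicate 3 and −0.07 with library size alone as the scale. Fatty acid enzymes averaged −0.23, −1.02, −1.14 and −1.15 on the 4 days, with day 0 libraries from −0.15 to 0.10, so that both groups of enzymes lay between −1.02 and −1.25 from day 2 on. Regulators averaged −0.08, −0.48, −0.36 and −0.58, a mean over genes that went both ways: 2 of 5 were lower and 1 higher on each of days 2, 3 and 4. Their day 1 mean was −0.13 and −0.14 without day 0 replicate 1 or 2, −0.05 without day 0 replicate 3 or day 1 replicate 2, and −0.01 with library size alone as the scale. No test between roles was made.

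**Figure D3:**
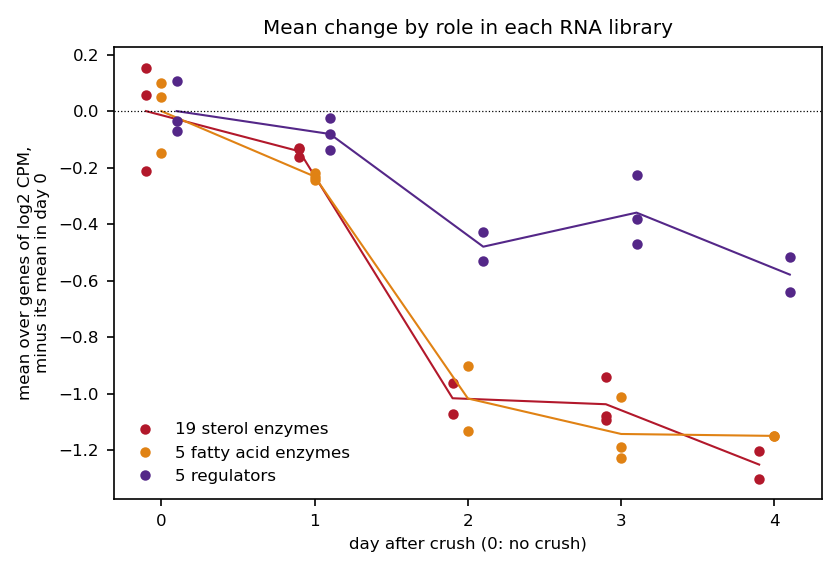
Mean log2 change of the 19 sterol enzymes, 5 fatty acid enzymes and 5 regulators in each RNA library, relative to the mean of day 0, by day after crush. Each point is 1 library; both groups of enzymes lie near 0 on day 1 and near −1 or below on days 2 to 4.

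Genes of the same pathways outside the 30, in 4 lists, were read in the same fit. Of 15 other sterol and prenyl enzymes tested, out of 17 listed, 3 were lower on day 1, 5 were lower and 1 higher on day 2, and 6 were lower and 3 higher on day 3 as well as on day 4. Over all genes 5.45%, 14.5%, 20.1% and 19% were lower and 5.93%, 14.8%, 20.4% and 19.8% higher on days 1, 2, 3 and 4, the shares against which each list's counts stand. Por, the electron donor of Cyp51, Sqle and many cytochromes, had a log2 change of 1.62 ± 0.11 on day 3. The 9 calls of day 3 became 5 without day 3 replicate 3.

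Of 12 other SREBP pathway genes tested, out of 14, 1 was lower on day 1, 4 were lower and 1 higher on day 2, 4 lower and 4 higher on day 3, and 5 lower and 4 higher on day 4. Rnf145, a ubiquitin ligase of the endoplasmic reticulum, changed by −0.90 ± 0.10 on day 3. Erlin1 and Erlin2, membrane proteins of the endoplasmic reticulum that restrict SREBP processing, changed by 1.31 ± 0.15 and 0.51 ± 0.09 on day 3. Of 25 other fatty acid genes tested, out of 26, 1 was lower on day 1, 8 were lower and 2 higher on day 2, and 12 were lower and 4 higher on days 3 and 4. Elovl6, which elongates palmitate, had a mean of 197 CPM on day 3 against 495 on day 0 (3 libraries each; log2 change −1.33 ± 0.08), and Tecr, the reductase of the elongation cycle, changed by −1.49 ± 0.08. Fads3, a desaturase of sphingoid bases, was higher by 1.13 ± 0.12. Of 26 genes of sterol efflux, storage, turnover and uptake, out of 28, 1 was higher on day 1, 3 were lower and 6 higher on day 2, 9 lower and 9 higher on day 3, and 7 lower and 9 higher on day 4, the lower share on day 2 being under the 14.5% of all genes. Osbpl1a, of the oxysterol-binding protein family, and the exporter Abcg4 changed by −0.99 ± 0.08 and −0.93 ± 0.11 on day 3, and the lipoprotein receptor Lrp1 by 0.64 ± 0.09.

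Accessibility was read at promoter peaks, which the authors annotated to members by gene identifier. There were 45 such peaks for 24 members, and for each the one nearest the start was followed. No promoter peak carried the identifier of Mvk, Mvd, Fdps, Ggps1, Nsdhl or Insig1. Peak counts were tested with edgeR's quasi-likelihood test with day and the authors' batch number as terms, over all 151630 peaks. Batch 2 held replicates 1 to 3 of every day and batch 1 held replicates 4 to 6 of days 0 and 3. The share of reads in peaks moved with day: it was 0.322 to 0.496 on day 0, 0.157 to 0.186 on day 1 and 0.173 to 0.456 on day 3.

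On day 1, 6 of the 45 peaks were called lower, those at the starts of Scap, Insig2, Acaca, Lss, Dhcr7 and Acly, where 2.4% of all peaks were lower. The Scap peak had 20.0, 21.6 and 19.9 CPM on day 1, and its lowest, median and highest value was 30.3, 31.7 and 32.6 CPM on day 0. The groups did not overlap, and the log2 change was −0.60 ± 0.14 (edgeR adjusted p = 0.021). At the Insig2 start (chr1:121326546-121328902) the day 1 libraries had 31.0, 32.0 and 32.7 CPM, against 47.9, 56.1 and 63.7 CPM as lowest, median and highest of day 0 (−0.53 ± 0.16, edgeR adjusted p = 0.041). This is the member whose RNA was higher. The Hmgcs1 start, over the promoter printed above, had 69.8, 71.5 and 76.6 CPM on day 1, against 89.9, 106 and 146 on day 0, without overlap and without a call (−0.40 ± 0.14, edgeR adjusted p = 0.080). These day 0 ranges pool both batches, and all day 1 libraries are of batch 2. In batch 2 the day 0 libraries had 96.28, 89.91 and 90.83 CPM at Hmgcs1 and 48.69, 49.85 and 47.92 CPM at Insig2.

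Strong start-site peaks in general also had negative changes on day 1, and the difference between members and the rest was not tested. Over the 23 members' peaks that covered a start and averaged at least 10 CPM, the median log2 change was −0.39 and 26.1% were called lower, and over all 13473 such peaks the median was −0.37 and 18.5% were called lower. With each library's trend against mean peak strength removed, an alternative chosen after seeing the data, the median over members' start-site peaks was −0.01 and all 6 calls were lost. With a further term for the share of reads in peaks all 6 were also lost, and the median was −0.24. Within batch 2 alone, 22 of the 45 promoter peaks were lower and 3 higher on day 1, where 12.4% of all peaks were lower and 14.6% higher, and 64.2% of all strong start-site peaks were lower. Of the members' 24 start-site peaks, 20 were called in that fit. Leaving out any single day 1 library, or day 0 replicate 1 or 3, left no call among the 45, and leaving out day 0 replicate 2 left 1, while leaving out day 3 replicate 4 or 6 gave 12 or 15.

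On day 3, again 6 peaks were lower, where 7.39% of all peaks were: the starts of Cyp51 (−0.34 ± 0.11, edgeR adjusted p = 0.034), Insig2 (−0.33 ± 0.12, 0.046) and Scap (−0.29 ± 0.11, 0.046), and weaker peaks at −743 bases from an Acly start (−0.56 ± 0.14, 0.0057), one at −955 bases from a Dhcr7 start (−0.37 ± 0.13, 0.036) and one at −1325 bases from a Scap start (−0.48 ± 0.14, 0.016). The Insig2 start had 28.4, 46.2 and 63.1 CPM as lowest, median and highest on day 3, against 47.9, 56.1 and 63.7 on day 0, and the groups overlapped. The median over the 23 strong start-site peaks of members was −0.16, with 13% called lower, and over all such peaks −0.16 with 15% called lower. Within batch 1 alone 0 of the 45 were called, where 0.411% of all peaks were lower and 4.32% higher, and within batch 2 alone 5 were lower and 4 higher, where 12.5% and 16.8% were. Single libraries set this count too: it was 1 without day 0 replicate 1 or 4 or day 3 replicate 2, 2 without day 0 replicate 3 or day 3 replicate 4, 3 without day 0 replicate 2 or 5 or day 3 replicate 3, and 10 without day 3 replicate 1. In the authors' deposited table of ATAC comparisons, 1 member peak was lower on day 1, with a log2 change of −0.68 (adjusted p = 0.040). It was a weak Insig2 peak at −903 bases from a start, and the same peak was lower on day 3 (−0.46, 0.022). The Acly peak at −743 bases was also lower on day 3 (−0.54, 0.031). At the 6 starts called here on day 1 the authors' table had no call. Its log2 changes there were −0.35 at Scap, −0.11 at Insig2, 0.01 at Acaca, −0.05 at Lss, 0.09 at Dhcr7 and 0.04 at Acly. Nor did it call the start of Cyp51 (−0.25), Insig2 (−0.25) or Scap (−0.30) on day 3.

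On day 3 against day 1, edgeR called 0 of the 45 peaks, where 0.193% of all peaks were lower and 0.987% higher on day 3, and DESeq2's Wald test also called 0. At an unadjusted edgeR p of at most 0.05, 3 were higher and 1 lower. The share of all peaks at that threshold was not counted, so these counts show nothing particular to members. The median log2 change was 0.24 over members' strong start-site peaks and 0.22 over all such peaks. For 5 of the 6 members with no peak by identifier, a peak annotated to another gene or none covered the RefSeq promoter window, a reading chosen after values were seen. Those peaks changed on day 1 by −0.29 at Insig1, −0.33 at Mvk, −0.33 at Mvd, −0.47 at Ggps1 and −0.42 at Nsdhl, and none was called on day 1 or day 3. The Tm7sf2 promoter peak nearest its start lay 1753 bases away and was weak, with log2 changes of 0.22 on day 1 and 0.16 on day 3, neither called. A stronger peak annotated to Vps51 covered the Tm7sf2 promoter window and changed by −0.37 on day 1 and −0.17 on day 3, without a call.

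**Figure D4:**
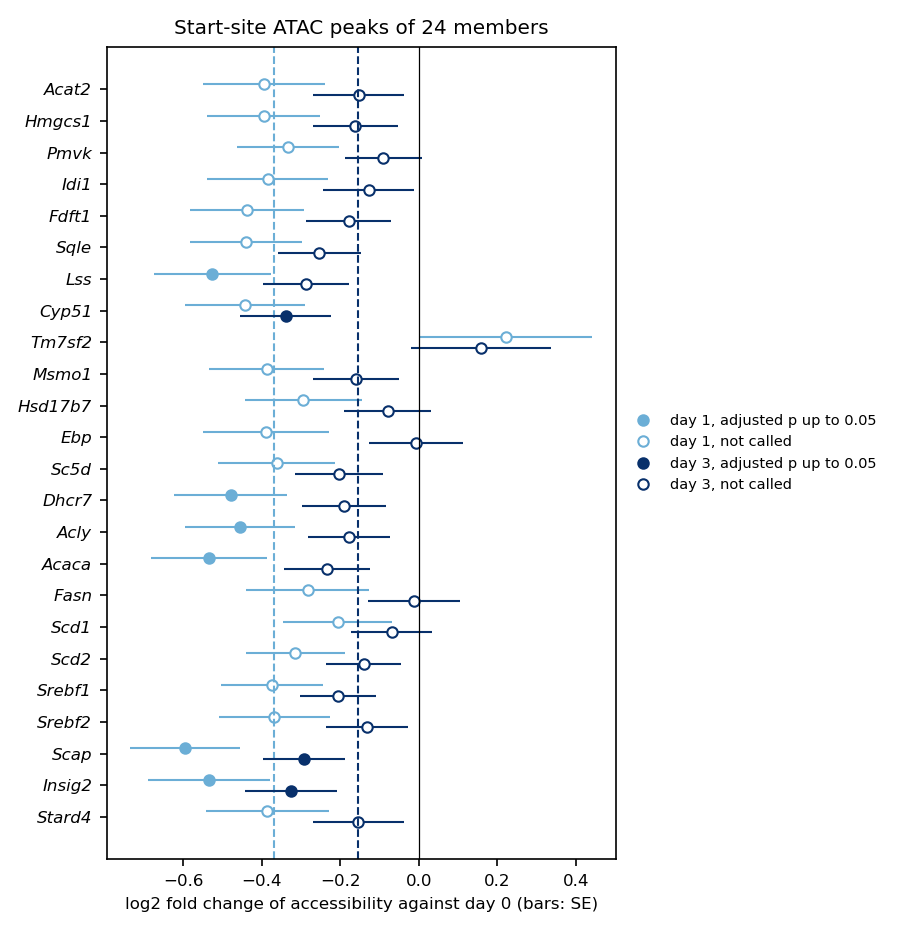
Log2 change of the promoter peak nearest the start of each of 24 genes on day 1 and on day 3, relative to day 0, with bars of 1 SE. Filled points were called, and dashed lines are the medians of all strong start-site peaks, −0.37 on day 1 and −0.16 on day 3. Most points of each day lie near its line, with Tm7sf2 above 0 on both days.

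The authors also deposited chromVAR scores, which express how far peaks that hold a motif deviate from peaks of like strength and base content in each library. Among the 1312 motifs were 4 of SREBF factors. In limma fits with day and batch as terms, all 4 were lower on day 1, as 75.7% of all motifs were. SREBF1 had −3.03, −5.69 and −6.97 on day 1, against −2.69, 1.22 and 5.11 as lowest, median and highest on day 0, a difference of −7.50 ± 1.32 (limma adjusted p = 0.00014). SREBF2 had −1.76, −4.03 and −4.96 on day 1, against −1.87, 0.43 and 2.93 on day 0 (−4.77 ± 1.04, limma adjusted p = 0.00082). The 2 groups did not overlap for SREBF1. For SREBF2 they overlapped only through day 0 replicate 4, a library of batch 1, at −1.87. In batch 2, which holds all day 1 libraries, the SREBF2 scores of day 0 were 2.93, 1.26 and 0.404. The median motif differed by −8.39 on that day, and library medians were 0.586 to 5.603 on day 0, −6.23 to −4.26 on day 1 and −2.01 to 0.348 on day 3. With each library centred on its median motif the 4 differences were 1.66 for SREBF1, 4.39 for SREBF2, 2.67 for SREBF2(var.2) and 1.76 for Srebf1(var.2), of which SREBF2 alone passed the test, as higher.

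On day 3 the 4 motifs split. SREBF2(var.2) and Srebf1(var.2) were lower, with differences of −7.63 ± 1.47 (limma adjusted p = 0.00028) and −9.01 ± 1.44 (6.2e-05), where 58.2% of all motifs were lower. SREBF2(var.2) ranged from −6.43 to −1.49 on day 3 and from −0.640 to 7.04 on day 0, and Srebf1(var.2) ranged from −7.05 to −2.81 on day 3 and from −0.0639 to 7.32 on day 0. Neither pair of groups overlapped. SREBF1 and SREBF2 differed by −0.63 ± 1.00 and 0.12 ± 0.79, and neither passed. The median motif differed by −3.85 on day 3, and with libraries centred SREBF1 and SREBF2 were higher by 2.80 and 3.55 while the var.2 pair was lower at −4.20 and −5.59. The day 1 call of SREBF2(var.2) was lost without day 1 replicate 3 (limma adjusted p = 0.051), the library whose score of −6.18 stood apart from 0.587 and 0.0867.

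**Figure D5:**
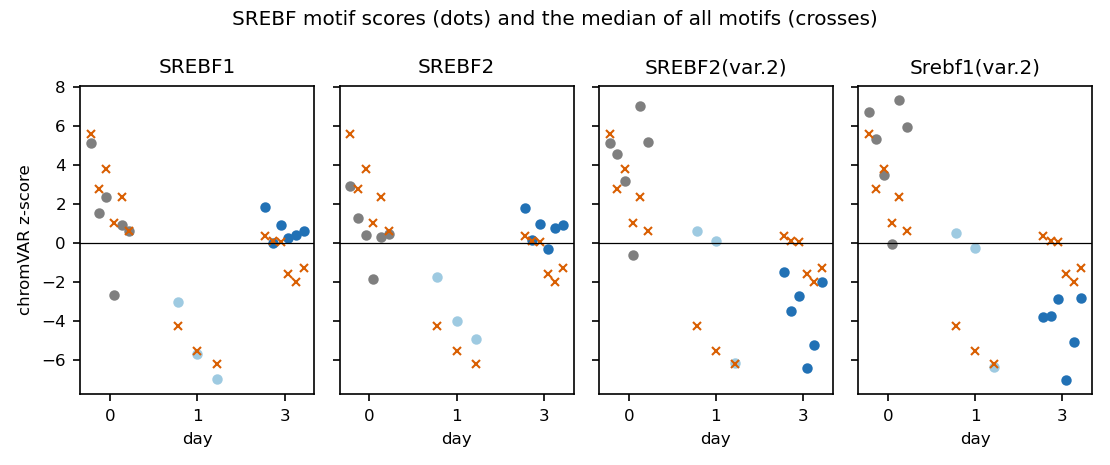
chromVAR score of the 4 SREBF motifs in each ATAC library by day after crush, each dot 1 library and each cross the median of all motifs in that library. SREBF1 and SREBF2 are low on day 1, SREBF2 with overlap through day 0 replicate 4 alone, and back in their day 0 range on day 3. Both var.2 motifs lie below their day 0 range on day 3.

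Footprint scores, which measure the dip in cuts over a bound motif, were deposited for ATF3, ATF4, CEBPG and DDIT3, factors of the stress response, with the libraries of each day pooled and so without error. Member promoters held 17 ATF3 sites in 13 genes, 5 ATF4 sites, 4 CEBPG sites and 5 DDIT3 sites. The median ATF3 score at members' promoter sites was 0.152, 0.186 and 0.223 on days 0, 1 and 3, against 0.147, 0.214 and 0.230 at all 6906 ATF3 promoter sites. Insig1's ATF3 site (chr5:28071303-28071318) spans the E-box of the promoter printed above, and its score was 2.12, 2.69 and 2.88 on days 0, 1 and 3. The Idi1 site (chr13:8885495-8885506), also within the printed window, scored 1.41, 1.71 and 1.42. At Srebf2 a site shared by all 4 factors, at −315 bases from the start for ATF4, scored 0.771, 1.05 and 1.01.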

How the data were processed

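Libraries were RNA sequencing (SMART-Seq v4, a kit that does not keep strand) and ATAC sequencing of sorted mouse RGCs. Reads were processed with STAR, Picard and HTSeq for RNA and with Bowtie2, MACS2, featureCounts and ChIPseeker for ATAC, on mm10 and with no version stated in the sources used here, per the submitters' processing notes. The RNA and ATAC tables hold counts per gene and per peak as deposited, with no normalization. The authors' normalized RNA values and fold changes, taken as log2, served to check day labels, and the authors' ATAC log2 fold changes with their adjusted p-values were copied as deposited. chromVAR and footprint scores were used as deposited by the authors, as was the fraction of reads in peaks per the file headers.

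Counts were fitted with edgeR 4.0.16 (R 4.3.3; TMM, quasi-likelihood, default expression filter), with day as the term for RNA and day and batch for ATAC. Motif scores were fitted with limma 3.58.1, and DESeq2 1.42.0 was an alternative. SE is the log2 change divided by the root of F, and BH adjustment ran over all genes, peaks or motifs. The labels name no RNA batch. Deviations of same-numbered libraries correlated above 0.1 in 0 of 22 RNA pairs, and no RNA block was used. For ATAC it was 5 of 12 same-numbered pairs (median r = 0.085) and 13 of 60 different-numbered pairs (median r = −0.022). These values do not settle whether the ATAC numbers are pairs, and the main ATAC fit used batch without a replicate block. CPM used TMM library sizes.

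The 30 members and the lists were chosen with earlier results of these data known. Values per library are given for the 6 sterol enzymes with the smallest p over all days, all fatty acid enzymes and regulators, and Stard4; Idi1 and Sqle were added after their values were seen. From each list the 3 genes with the smallest p and at least 5 CPM are named, except that some of these are not reported here.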

Additional observations from a re-analysis of the deposited data

Results flagged for a closer look

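Among 56 groups of 6 ATAC libraries (24 start-site peaks and 4 motifs on days 3 and 0), 1 held a library far from the others. The Fasn start-site peak had 130.2 CPM in day 3 replicate 4, against 165 to 174 CPM in the other 5 libraries of that day, a gap of 0.791 of the whole range. This peak is 17290 bases wide and runs from the start into the gene, so its count is not of the promoter alone. Chance marks about 1 in 20 such groups. Its part in the Fasn result was not tested beyond leaving the library out.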

How the results depend on the processing

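The RNA counts on days 2, 3 and 4 rest on groups of 2 or 3 libraries, and the ATAC calls on changes of the size of the general shift in strong peaks. Leaving out 1 library at a time gave 3 to 7 members on day 1 (6 in the report; 3 without day 0 replicate 3 or day 1 replicate 3), 19 to 27 on day 2 (26), 22 to 25 on day 3 (24), 22 to 24 on day 4 (22), 20 to 23 for day 3 against day 1 (22) and 25 to 26 for any day (25). Fitting only the groups compared gave 3 on day 1. Alternatives other than leaving out 1 library gave 20 to 27 on day 2. With the first 2 of the authors' sequencing components as terms, Pmvk, Sqle, Cyp51, Sc5d, Dhcr7 and Acly lost their day 2 call. With a replicate block, 5, 25, 24 and 22 members were called on days 1 to 4, 21 for day 3 against day 1 and 25 for any day. Same-numbered RNA libraries correlated at −0.126 to 0.068 in their deviations, and the numbers were taken as pairs in neither assay. ATAC ones correlated at −0.207 to 0.223, against −0.279 to 0.311 for different-numbered ones, which does not settle whether the numbers are pairs. Of all alternative values of RNA genes, 2898 kept their call or lack of one, 75 lost and 27 gained a call. Among values called in either fit 0 reversed direction, and direction was not compared where neither fit made a call. The other sterol and prenyl enzymes gave 5 to 9 calls.

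ATAC counts on day 1 (6 in the report) were 10 with DESeq2 size factors, 15 with DESeq2's Wald test, 0 with day alone, 3 with a replicate block in place of batch, 0 with the share of reads in peaks, 25 in batch 2 alone, 0 with the strength trend removed, and 0 to 15 leaving out 1 library. On day 3 (6) they were 1 with day alone, 1 with the share of reads in peaks, 0 in batch 1 alone and 1 to 10 leaving out 1 library. For day 3 against day 1 (0) batch 2 alone gave 1. Centring motif scores on each library's median gave 1 SREBF motif on day 1 (4 in the report) and 4 on day 3 (2). It reversed SREBF1 (1.66), SREBF2 (4.39), SREBF2(var.2) (2.67) and Srebf1(var.2) (1.76) on day 1 and SREBF1 (2.80) on day 3. The cause of these shifts was not tested.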
